A study of Mus musculus with 57 samples.

Results

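The 10 genes described here, Mapt, Apoe, Clu, Bin1, Picalm, Sorl1, Abca7, Cd2ap, Ptk2b and Abca1, are mouse genes whose human counterparts are known for their link to Alzheimer's disease and that are used in many tissues. They were chosen by name, as 10 of the 26089 curated RefSeq genes on the autosomes and the X chromosome, and together they hold 14 of the 31554 annotated transcription start sites (TSSs). The study profiled H3K4me3, H3K27ac and H3K27me3 by chromatin immunoprecipitation and sequencing in 57 libraries, with 9 libraries of brain cortex and 10 of gastrocnemius, a hindlimb muscle, for each mark. All mice were of the PSAPP strain, a transgenic model of amyloid pathology whose transgenes include a chimeric mouse and human APP carrying the Swedish mutation, and no mice without the transgenes were in the series, so that every value below describes tissue of transgenic animals. They were killed at 13 months, after housing alone and a fixed daily ration of a modified AIN-93 diet from 6 months on. Which promoter drives the transgenes was not stated in the labels or methods read here. The names of the deposited files carry a mouse code, by which 9 mice gave both tissues, and the libraries of a tissue came from different mice. The question put to the data was whether the 3 marks at these genes differ between the tissues.

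H3K4me3 marks the nucleosomes around active and poised promoters, H3K27ac marks active promoters and enhancers, and H3K27me3 is laid down by Polycomb repressive complexes over genes that are kept silent. The 10 genes fall into 3 groups by role. Apoe and Clu encode secreted lipid carriers, of which clusterin is also an extracellular chaperone, and Abca1 and Abca7 encode membrane transporters that move lipid to such carriers. Bin1 shapes membranes during endocytosis and, in muscle, the T-tubules, Picalm assembles clathrin at the plasma membrane, Cd2ap is a scaffold between membrane receptors and actin, and Sorl1 is a sorting receptor that keeps cargo such as APP in the recycling pathway. Mapt encodes tau, which binds microtubules, and Ptk2b encodes the calcium-responsive tyrosine kinase PYK2 of adhesion signalling.

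The sequence before the TSS is shown for 5 genes whose promoters carried H3K4me3 in all 19 libraries, to show how unlike these promoters are in composition. Each run holds the 250 bases upstream of the gene's leading TSS in GRCm38.p6 from RefSeq, 5′ to 3′ on the gene's strand, and capitals mark a GC box, a CCAAT box or a TATA box found on either strand. The GC box was searched for as GGGCGG. The CCAAT box was searched for by the letters of its name, and for the TATA box the motif was TATAAA, which overlaps neither of the others. The leading TSS was the one with the highest mean H3K4me3. The stretches are chr7:19698622-19698871 on the minus strand for Apoe, chr7:90129963-90130212 on the plus strand for Picalm, chr10:79996244-79996493 on the plus strand for Abca7, chr4:53159896-53160145 on the minus strand for Abca1 and chr9:42124298-42124547 on the minus strand for Sorl1.
Apoe: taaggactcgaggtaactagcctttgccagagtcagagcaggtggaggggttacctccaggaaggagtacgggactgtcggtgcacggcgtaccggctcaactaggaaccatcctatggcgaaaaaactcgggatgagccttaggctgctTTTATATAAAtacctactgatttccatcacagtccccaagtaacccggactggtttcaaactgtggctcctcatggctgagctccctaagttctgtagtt
Picalm: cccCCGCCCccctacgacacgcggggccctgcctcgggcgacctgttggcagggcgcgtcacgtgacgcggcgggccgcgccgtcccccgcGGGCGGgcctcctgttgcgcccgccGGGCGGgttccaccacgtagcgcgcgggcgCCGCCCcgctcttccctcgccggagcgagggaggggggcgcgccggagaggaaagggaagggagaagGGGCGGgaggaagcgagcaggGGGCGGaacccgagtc
Abca7: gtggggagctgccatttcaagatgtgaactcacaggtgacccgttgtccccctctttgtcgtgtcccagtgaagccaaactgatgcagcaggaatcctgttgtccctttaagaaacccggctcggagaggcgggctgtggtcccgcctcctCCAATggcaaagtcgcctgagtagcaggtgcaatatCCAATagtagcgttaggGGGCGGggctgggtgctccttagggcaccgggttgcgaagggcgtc
Abca1: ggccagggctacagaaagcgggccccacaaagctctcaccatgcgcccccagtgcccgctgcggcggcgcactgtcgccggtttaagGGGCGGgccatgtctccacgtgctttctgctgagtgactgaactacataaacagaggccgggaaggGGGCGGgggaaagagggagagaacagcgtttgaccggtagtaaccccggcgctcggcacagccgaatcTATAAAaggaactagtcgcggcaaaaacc
Sorl1: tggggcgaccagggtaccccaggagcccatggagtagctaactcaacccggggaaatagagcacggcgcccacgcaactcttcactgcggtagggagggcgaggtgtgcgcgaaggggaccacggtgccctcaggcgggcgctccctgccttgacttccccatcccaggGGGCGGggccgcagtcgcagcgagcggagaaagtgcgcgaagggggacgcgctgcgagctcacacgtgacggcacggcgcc
The Picalm stretch holds 39 CpG dinucleotides, a number reached by 1.565% of the 32851 RefSeq promoters of this length, and 6 GC boxes. Cd2ap, of which no run is printed, holds 31 CpGs and none of these boxes, Sorl1 26 CpGs and 1 GC box, Abca1 20 CpGs, 2 GC boxes and a TATA box starting 29 bases before the TSS, and Abca7 12 CpGs, 1 GC box and 2 CCAAT boxes. Apoe holds 9 CpGs, against a median of 6 over all promoters, and 2 overlapping TATA boxes on opposite strands that start 100 and 96 bases before this TSS. This Apoe TSS lies in the first intron of the longest Apoe transcripts, which start at position 19699188. A GC box occurs in 32.74% of all promoters, a CCAAT box in 33.85% and a TATA box in 12.37%, and the cAMP response element TGACGTCA, found in 1.546%, is in none of the 6 members matched by name. These matches describe the letters of the window only. Mapt, Clu, Ptk2b and Bin1 were not matched.

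The deposited files list called peaks with their read counts, so that a value of 0 means that no peak was called and not that no read fell there. Levels are given as RPM, the reads of called peaks that fall in a window for every 1000000 reads in autosomal peaks of the library, and the reads of a peak were shared evenly along its length. A window inside a peak thus holds the mean read density of that peak, not its height, and a longer peak with the same reads gives a lower value. The reads in peaks of a library, in units of 1000000 reads (M), ran from 9.50 to 19 M in cortex and 9.16 to 15.0 M in gastrocnemius for H3K4me3, from 3.94 to 21.2 M and 15.7 to 27.3 M for H3K27ac, and from 4.52 to 7.32 M and 2.99 to 18.2 M for H3K27me3. H3K4me3 peaks covered 53.7 to 68.7 Mb in cortex and 72.3 to 110 Mb in gastrocnemius, with no overlap between the tissues. The labels of the tissues were checked against marker genes at the leading TSS. All 6 neuronal markers had more H3K4me3 in cortex (summed 161 to 194 RPM against 9.05 to 18.5), and all 8 muscle fibre markers had more in gastrocnemius (0 to 6.76 RPM against 99.0 to 154), with no cortex peak at Ckm, Myh1, Myh2, Myh4, Tnnt3 and Atp2a1 and no gastrocnemius peak at Snap25, Gad1 and Nefl. Of the markers of other cells, H3K4me3 was higher in cortex at 6 of 6 for oligodendrocytes, 2 of 6 for astrocytes (3 were higher in gastrocnemius), 3 of 5 tested for microglia and 2 of 3 for Schwann cells (Prx was higher in gastrocnemius), and higher in gastrocnemius at 2 of 2 for muscle stem cells, 4 of 4 for endothelium and 4 of 4 for fibroblasts. No adipocyte marker had an H3K4me3 peak. For H3K27ac the same lists gave 6 of 6 neuronal, 4 of 6 oligodendrocyte, 2 of 6 astrocyte, 3 of 6 microglial and 1 of 3 Schwann cell markers higher in cortex, and 8 of 8 muscle fibre, 2 of 2 muscle stem cell, 4 of 4 endothelial, 3 of 4 fibroblast, 3 of 6 astrocyte, 1 of 3 Schwann cell and 1 of 2 tested adipocyte markers higher in gastrocnemius. For H3K27me3 they gave 6 of 7 tested muscle fibre, 2 of 2 muscle stem cell, 1 of 6 neuronal, 2 of 6 astrocyte, 1 of 4 tested microglial, 1 of 3 tested endothelial, 1 of 4 fibroblast and 1 of 1 tested Schwann cell markers higher in cortex, and 2 of 6 neuronal, 1 of 5 tested oligodendrocyte, 1 of 4 tested microglial and 1 of 3 adipocyte markers higher in gastrocnemius. The cell makeup of the tissues therefore moves with every comparison below. Its part in them was not tested, and a mark carried by fewer cells of a tissue cannot be told apart from less of the mark per cell.

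At the leading TSSs, within 1 kb to either side, all 10 genes had an H3K4me3 and an H3K27ac peak in every library, while H3K27me3 was seen in 3 or more libraries at Ptk2b and Apoe only. Of all 31554 TSS windows, leading or not, 17175 had an H3K4me3 peak and 16678 an H3K27ac peak in every library. For H3K27me3, 9364 of the 26089 genes had a peak at the leading TSS in at least 3 libraries of a tissue. A difference is called here where the Benjamini-Hochberg adjusted p over all genes tested (FDR) of edgeR's quasi-likelihood test was under 0.1, and log2 values are cortex minus gastrocnemius after scaling by trimmed means (TMM). Windows, loci and sites were tested where at least 3 libraries of a tissue had a peak. One with peaks in a single tissue, or in fewer than 3 libraries of the other tissue, was therefore tested only because of the tissue where it is high. Such a case is described below by its number of libraries with a peak and their values. A test result printed for it is no support for a difference. H3K4me3 was higher in cortex at 4 of the 10 (Ptk2b, Clu, Picalm and Apoe) and higher in gastrocnemius at 0, against 32.6% and 27.2% of the 16952 genes tested. At an unadjusted p under 0.05 the count higher in gastrocnemius was also 0, and DESeq2 gave 1. H3K27ac was higher in cortex at 3 (Ptk2b, Mapt and Clu) and higher in gastrocnemius at 2 (Abca7 and Bin1), against 31.8% and 24.7% of 18481 genes. The median difference of the 10 was 0.13 for H3K4me3 and 0.07 for H3K27ac, against 0.04 and 0.03 over all genes. The counts higher in cortex and the H3K27ac count higher in gastrocnemius are near the shares of all genes, and the H3K4me3 count higher in gastrocnemius is below its share. The scaling matters here, since without TMM the median log2 difference of all TSS windows moved from 0.04 to 0.33 for H3K4me3 and from 0.02 to 0.29 for H3K27ac, the share of calls that were higher in cortex moved from 53.94% to 77.95% and from 56.03% to 79.16%, and the members called higher in cortex and in gastrocnemius became 6 and 0 for H3K4me3 and 6 and 1 for H3K27ac. Counted over whole peaks in place of the window, they became 6 and 4 for H3K4me3 and 4 and 5 for H3K27ac.

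**Figure D1:**
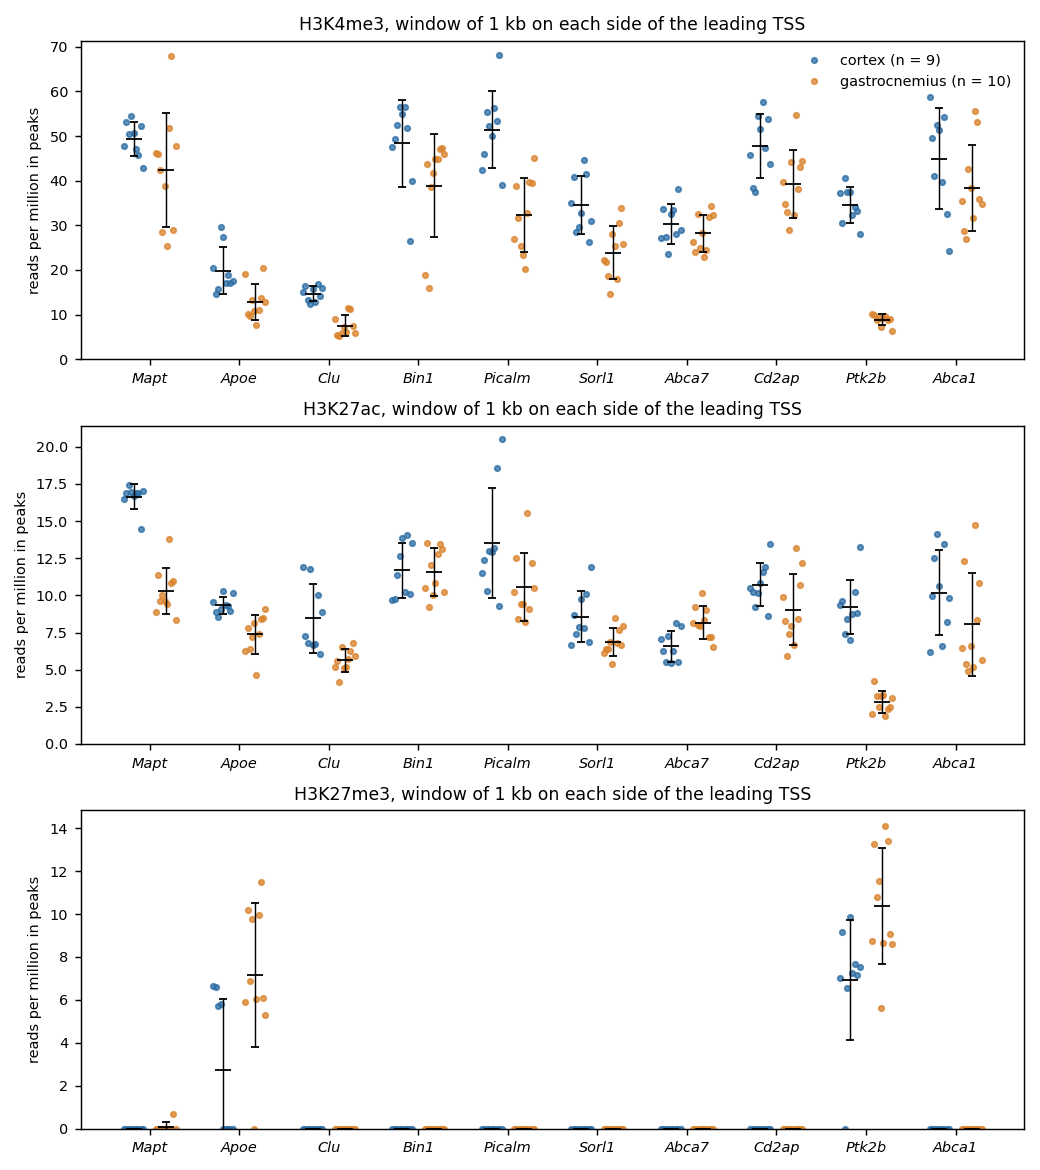
RPM within 1 kb of the leading TSS of each of the 10 genes for the 3 marks, with a point for each of the 9 cortex and 10 gastrocnemius libraries and bars at the mean ± SD, cut at 0. Points at 0 are libraries with no called peak there; the tissues do not overlap for H3K4me3 at Ptk2b and Clu and for H3K27ac at Ptk2b and Mapt, and H3K27me3 stands above 0 in 3 or more libraries only at Ptk2b and Apoe.

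Along the whole genes with 50 kb on each side the tissues differed more often, among these genes as among all. For H3K4me3 all 10 loci were called, 5 higher in cortex and 5 in gastrocnemius, where 40.7% and 41.1% of all 21836 loci were. For H3K27ac 4 were higher in cortex and 6 in gastrocnemius, where 45.1% and 40.6% of 22468 were. For H3K27me3 3 were higher in cortex, 2 in gastrocnemius and 5 had no call, where 34% and 27.8% of 22264 were called. Of the 3, Clu and Abca7 had peaks in every library of both tissues and Cd2ap in cortex libraries alone. The same genes led both active marks: Ptk2b, Clu, Sorl1 and Mapt were higher in cortex for H3K4me3 and H3K27ac, and Abca1, Bin1, Cd2ap, Abca7 and Picalm were lower in cortex for both. Apoe was split, at 0.06 for H3K4me3 (SE 0.03, edgeR FDR 0.0558) and −0.13 for H3K27ac (SE 0.04, edgeR FDR 0.00556), and for H3K27ac it turned to 0.30 over the gene alone. Its H3K4me3 call was lost without gastrocnemius replicate 1 (edgeR FDR 0.121) or replicate 7 (edgeR FDR 0.104) and without TMM (0.04, edgeR FDR 0.258). In a fit that left the promoters of other genes out of all loci and set the scaling anew from what remained, Apoe (0.00), Bin1 (−0.05), Abca1 (−0.02) and Cd2ap (0.02) were not called for H3K4me3, and 2 loci, Abca7 and Picalm, were higher in gastrocnemius. The Cd2ap locus held no other promoter and kept its RPM (84.5 in cortex and 100.4 in gastrocnemius), so that its value moved with the scaling alone. At Bin1 the means went from 205 and 235 RPM to 157 and 196 RPM, and at Abca1 from 166 and 185 RPM to 116 and 142 RPM, and the parts of the removed reads and of the scaling were not tested.

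**Figure D2:**
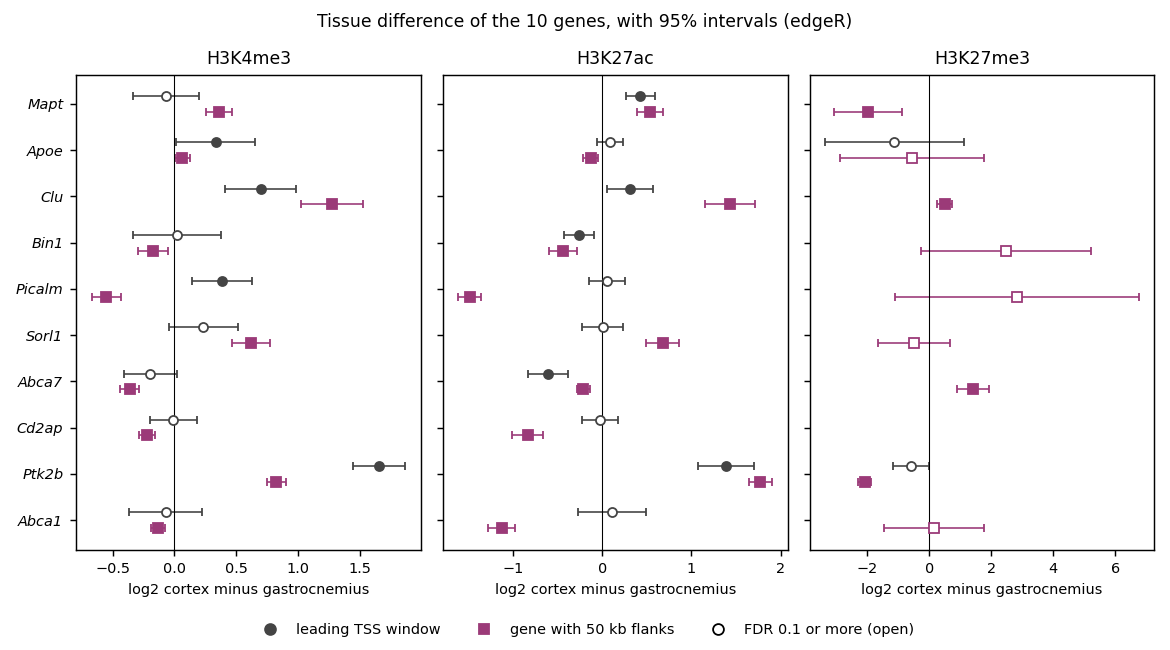
Log2 difference, cortex minus gastrocnemius, with its 95% interval for each gene and mark, at the leading TSS and over the gene with 50 kb flanks, from the edgeR fits, with open symbols where the FDR was 0.1 or more. Ptk2b stands farthest to the cortex side for H3K27ac (1.77 over the locus) and farthest to the gastrocnemius side for H3K27me3 (−2.08); a gene without an entry had no peak in a tissue or was not tested.

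The merged peak sites in these 10 loci numbered 43 for H3K4me3, 57 for H3K27ac and 23 for H3K27me3. Of them, 12, 30 and 5 were higher in cortex, against 36.3%, 47.7% and 35.5% of all sites in the genome, and 24, 19 and 6 were higher in gastrocnemius, against 46.3%, 31.9% and 20.4%. Only 29 of the 43, 38 of the 57 and 17 of the 23 had peaks in both tissues. The rest were tested only because of the tissue where they are high, and the shares of all sites include such sites too. Sites over 1 kb from any TSS made up 23 of the 43, 33 of the 57 and 9 of the 23. The site results named below are those called with the largest differences among sites away from TSSs whose values do not overlap between the tissues, at most 3 for a gene and mark.

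Ptk2b had more of both active marks in cortex and more H3K27me3 over its locus in gastrocnemius. Its differences were the largest of the 10 genes for H3K4me3 and H3K27ac at the leading TSS and over the gene body, and for H3K27ac and H3K27me3 over the locus among the loci with peaks in 9 of 9 cortex and 10 of 10 gastrocnemius libraries. At its leading TSS, chr14 position 66281052 on the minus strand, H3K4me3 measured 28.0, 34.0 and 40.7 RPM (lowest, median and highest) in cortex and 6.40, 9.10 and 10.2 RPM in gastrocnemius. Every cortex library lay above every gastrocnemius library. The difference was 1.66 on the log2 scale (SE 0.10, 95% interval 1.44 to 1.87, edgeR FDR 7.71e-12). H3K27ac at the same TSS measured 7.02, 8.85 and 13.3 RPM in cortex and 1.88, 2.79 and 4.24 RPM in gastrocnemius, a difference of 1.39 (SE 0.15, edgeR FDR 1.56e-07), again with no overlap. A second TSS of Ptk2b inside the gene, at 66213824, had H3K27ac peaks in 9 of 9 cortex libraries (7.25 ± 1.73 RPM, SD, n = 9) and in 0 of 10 gastrocnemius libraries. H3K4me3 was called there in 1 cortex library only. H3K27me3 at the leading TSS was present in both tissues, in 8 of 9 cortex and 10 of 10 gastrocnemius libraries, with 6.92 ± 2.80 and 10.4 ± 2.71 RPM (SD, n = 9 and n = 10), and the log2 difference of −0.59 (95% interval −1.17 to 0.00) was not called (edgeR FDR 0.102), but was without cortex replicate 2 (−0.67), replicate 3 (−0.43, edgeR FDR 0.000377) or replicate 5 (−0.65). At 66213824 it was called in 0 of 9 cortex and 4 of 10 gastrocnemius libraries, and it did not pass the test with the mouse as a block (edgeR FDR 0.166).

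Over the body of Ptk2b, chr14:66153257-66281052, the summed reads of called peaks differed more than in the window at its promoter. Stretches without a called peak add 0 to these sums, so that the log2 values also reflect how much of the gene was called. H3K27ac measured 294 ± 32.5 RPM in cortex and 4.54 ± 1.26 RPM in gastrocnemius (SD, n = 9 and n = 10), a log2 difference of 5.97 (SE 0.17, edgeR FDR 8.78e-16), and its peaks covered 92.5 kb of the gene in cortex and 2.35 kb in gastrocnemius. H3K27me3 measured 13.5 ± 7.41 RPM in cortex and 303 ± 53.9 RPM in gastrocnemius (SD, n = 9 and n = 10), a difference of −4.48 (SE 0.55, edgeR FDR 1.63e-06), over 4.26 and 74.2 kb. The gene is thus covered by acetylation in cortex and by H3K27me3 in gastrocnemius. H3K4me3 over the body was 78.3 ± 5.89 and 14.1 ± 2.11 RPM (SD, n = 9 and n = 10). Within the gene the H3K27ac site at chr14:66223201-66248200, all in intron 1, measured 51.5, 63.5 and 68.9 RPM in cortex and had no peak in any gastrocnemius library. The H3K27ac site at chr14:66143801-66192800, from exon 3 to the last of 31 exons with the 3′ UTR and on into the nicotinic receptor gene Chrna2, measured 82.5, 92.8 and 116 RPM in cortex and 7.39, 9.81 and 12.8 RPM in gastrocnemius (3.28, SE 0.12, edgeR FDR 2.79e-14). The H3K27me3 site at chr14:66148401-66204200 over the same exons had a peak in 2 of 9 cortex libraries, at most 14.2 RPM, and measured 99.6, 145 and 216 RPM in gastrocnemius. A smaller H3K4me3 site in the upstream flank, chr14:66322601-66326200, was higher in cortex by 0.84 (SE 0.13, edgeR FDR 1.18e-05). The TSS of Chrna2 itself had an H3K27ac peak in 0 of 9 cortex and 8 of 10 gastrocnemius libraries.

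**Figure D3:**
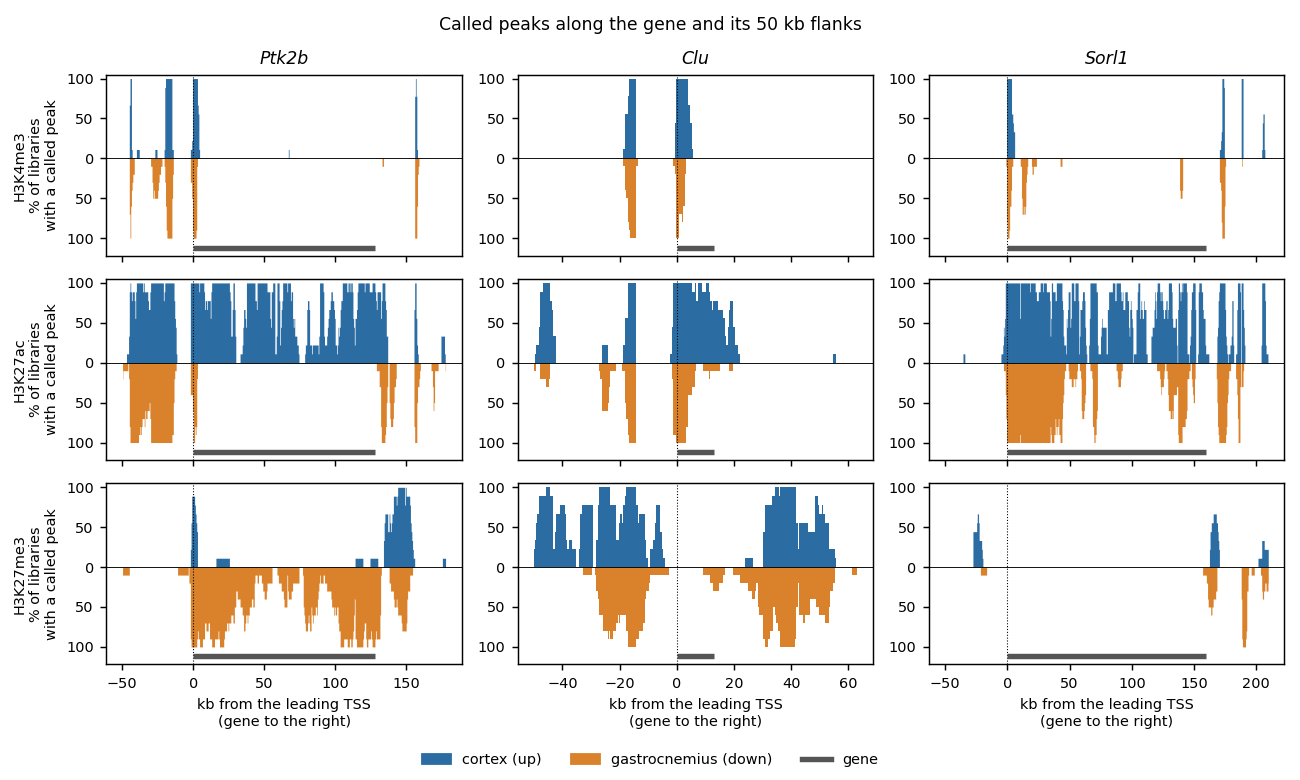
Percent of libraries with a called peak, cortex drawn upward and gastrocnemius downward, for each mark against the distance in kb from the leading TSS for Ptk2b, Clu and Sorl1 with 50 kb flanks. Over the Ptk2b body the H3K27ac peaks belong to cortex (92.5 kb covered against 2.35 kb) and the H3K27me3 peaks to gastrocnemius (74.2 kb against 4.26 kb).

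Mapt had the highest H3K27ac of the 10 promoters in cortex, and at its TSS this mark was called and H3K4me3 was not. H3K27ac at its TSS, chr11 position 104231436 on the plus strand, measured 14.5, 16.9 and 17.4 RPM in cortex and 8.34, 9.82 and 13.8 RPM in gastrocnemius. All cortex values were higher, and the difference was 0.43 (SE 0.08, edgeR FDR 8.70e-05). H3K4me3 in the same window was 49.4 ± 3.81 and 42.4 ± 12.8 RPM (SD, n = 9 and n = 10), with a log2 difference of −0.07 (95% interval −0.33 to 0.20, edgeR FDR 0.673), although the whole peak over the TSS held 190 ± 9.86 RPM in cortex and 124 ± 8.33 RPM in gastrocnemius, without overlap. Counted over whole peaks, the difference is 0.60 and called (edgeR FDR 1.76e-09).

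The higher H3K27ac of cortex at Mapt ran along the gene and upstream of it. Over the locus it was 478 ± 49.9 RPM in cortex and 333 ± 35.8 RPM in gastrocnemius (0.53, SE 0.07, edgeR FDR 5.86e-07, SD with n = 9 and n = 10). Upstream, the intergenic site chr11:104206601-104214400 measured 6.84, 9.94 and 15.1 RPM in cortex and had no gastrocnemius peak, and its neighbour chr11:104214801-104222000 had a peak in 9 of 9 and 4 of 10 libraries (3.15, SE 1.08, edgeR FDR 0.0127). Toward the 3′ end the order was reversed. The site chr11:104325801-104416000, from the last exon of Mapt with its 3′ UTR into Kansl1, measured 54.7, 59.7 and 77.6 RPM in cortex and 118, 148 and 173 RPM in gastrocnemius for H3K27ac (−1.22, SE 0.08, edgeR FDR 1.42e-10). Around exon 9 of 12, chr11:104314401-104321200, H3K4me3 was 3, 4.54 and 6.77 RPM in cortex and 17.1, 20.2 and 25.9 RPM in gastrocnemius (−2.06, SE 0.14, edgeR FDR 3.78e-11). H3K27me3 in the Mapt locus was 28.8 ± 16.2 and 117 ± 24.3 RPM (SD, n = 9 and n = 10; −1.98, SE 0.53, edgeR FDR 0.00378) and lay in the flanks, with no peak in the gene body in any cortex library and a mean of 0.82 kb covered there in gastrocnemius.

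Clu was higher in cortex for both active marks, and the level, the length and the read sum of its H3K4me3 peak did not overlap between the tissues. At its TSS, chr14 position 65968483 on the plus strand, H3K4me3 measured 12.3, 15.1 and 16.8 RPM in cortex and 5.14, 6.70 and 11.5 RPM in gastrocnemius (0.70, SE 0.14, edgeR FDR 0.000213). The peak was 5.24 ± 0.760 kb long in cortex and 2.68 ± 1.04 kb in gastrocnemius and held 51.1 ± 5.83 and 12.6 ± 2.86 RPM (SD, n = 9 and n = 10). H3K27ac in the TSS window overlapped between the tissues, with 6.06, 7.25 and 11.9 RPM against 4.17, 5.64 and 6.81 RPM (0.31, SE 0.12, edgeR FDR 0.0454, not called without cortex replicate 1, at 0.22, or replicate 4, at 0.23, nor within 500 bases of the TSS, at 0.24), but over the locus it measured 86.4 ± 13.4 and 32.3 ± 8.44 RPM without overlap (1.43, SE 0.13, edgeR FDR 3.91e-09, SD with n = 9 and n = 10). H3K27me3 was absent from the Clu TSS in all libraries. In the upstream flank, within Scara3, a scavenger receptor gene, the H3K27me3 site chr14:65915801-65933400 measured 24.8, 35.0 and 46.2 RPM in cortex and had no peak in gastrocnemius. The locus as a whole was higher in cortex for H3K27me3 (0.49, SE 0.11, edgeR FDR 0.00125), but was not called with 10 kb flanks (0.28, SE 1.22, edgeR FDR 0.864). In the gene body no cortex library and a minority of the gastrocnemius libraries had an H3K27me3 peak (median 0, at most 10.7 RPM). The body was called higher in gastrocnemius (edgeR FDR 0.0222), but it was tested only because of the few libraries with a peak, and the site there, with peaks in 0 of 9 and 3 of 10 libraries, was not called with the mouse as a block (edgeR FDR 0.161).

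Apoe differed by less. At its leading TSS, chr7 position 19698621 on the minus strand, H3K4me3 measured 14.5, 17.6 and 29.7 RPM in cortex and 7.67, 11.8 and 20.4 RPM in gastrocnemius. The tissues overlap, and the difference of 0.34 (SE 0.15, 95% interval 0.02 to 0.65) was called at an edgeR FDR of 0.0696. The call is weak, since it was lost in 8 of 19 fits that left out a library each (cortex replicate 4 or 5, or gastrocnemius replicate 2, 3, 5, 6, 7 or 10; log2 0.25 to 0.32, edgeR FDR 0.101 to 0.183), in the fit without the libraries whose names carry an S number (0.34, edgeR FDR 0.145), with DESeq2's size factors (0.29, edgeR FDR 0.113) and within 500 bases of the TSS (0.26, edgeR FDR 0.166). What the S number stands for was not stated, and it differs for each library that has it. Apoe has 2 further TSSs within the same peak, at 19698398 (0.36, edgeR FDR 0.0448) and 19699188 (0.25, edgeR FDR 0.0694), and the last call is lost with the mouse as a block (edgeR FDR 0.155). The 3 windows share their reads and are not separate evidence. The whole peak held 58.7 ± 6.90 RPM in cortex and 30.6 ± 6.26 RPM in gastrocnemius (SD, n = 9 and n = 10), without overlap. H3K27ac was 9.35 ± 0.575 and 7.39 ± 1.32 RPM at all 3 TSSs, which lie in 1 long peak, with a difference of 0.09 (SD, n = 9 and n = 10; 95% interval −0.06 to 0.23, edgeR FDR 0.318), which was called without TMM (0.34), within 2500 bases (0.19) and over the whole peak (0.41). H3K27me3 was called at the leading TSS in 4 of 9 cortex and 9 of 10 gastrocnemius libraries (2.76 ± 3.29 and 7.15 ± 3.35 RPM, SD, n = 9 and n = 10), and the difference of −1.12 had a 95% interval from −3.35 to 1.11 (edgeR FDR 0.428). Apoe and Ptk2b were the only 2 of the 10 genes with H3K27me3 at the leading TSS in 3 or more libraries, and neither was called by edgeR, nor was either at an unadjusted p under 0.05, while DESeq2 called Ptk2b lower in cortex (−0.67, adjusted p 0.0229), as did edgeR with windows of 500 or 2500 bases or whole peaks (−0.59, −0.88 and −2.45). Of the 9364 genes tested for this mark, 22.8% were higher in cortex and 25.2% in gastrocnemius. At 7 of the other genes no library had an H3K27me3 peak there, and Mapt had 1 in gastrocnemius.

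The transporters Abca1 and Abca7 were not called for H3K4me3 within 1 kb of their TSSs, and both were called lower in cortex over whole peaks (−0.14, edgeR FDR 0.0405, and −0.80, edgeR FDR 0.00935). Abca1, chr4 position 53159895 on the minus strand, measured 44.9 ± 11.3 and 38.3 ± 9.60 RPM (SD, n = 9 and n = 10; −0.07, 95% interval −0.36 to 0.22, edgeR FDR 0.688). Its H3K27ac was 10.2 ± 2.85 and 8.05 ± 3.45 RPM at the TSS (SD, n = 9 and n = 10; 0.11, 95% interval −0.28 to 0.49, edgeR FDR 0.655). Counted over whole peaks, Abca1 H3K27ac was called lower in cortex (−0.73, edgeR FDR 0.00195). Over the locus this mark measured 117, 140 and 177 RPM in cortex and 274, 299 and 348 RPM in gastrocnemius (−1.13, SE 0.07, edgeR FDR 7.20e-12). The intergenic stretch upstream of Abca1 at chr4:53176801-53182400 had H3K27ac in 2 of 9 cortex libraries, at most 5.17 RPM, and in 10 of 10 gastrocnemius libraries, at 7.80 to 12.4 RPM. Within it, chr4:53177601-53181400 had H3K4me3 in 0 of 9 and 10 of 10, at 3.70, 8.21 and 9.99 RPM. Abca7, chr10 position 79996494 on the plus strand, had H3K4me3 of 30.3 ± 4.43 and 28.2 ± 4.22 RPM (SD, n = 9 and n = 10; −0.19, 95% interval −0.41 to 0.02, edgeR FDR 0.122), which was called at −0.25 without cortex replicate 8, at −0.22 and −0.23 without gastrocnemius replicate 2 and 7, at −0.38 in the wider window, and at −0.24 with DESeq2 (adjusted p 0.0533) or its size factors. The whole Abca7 peak held 50.4 ± 4.50 RPM in cortex and 86.3 ± 62 RPM in gastrocnemius (SD, n = 9 and n = 10), without overlap. Its H3K27ac of 5.45, 6.28 and 8.14 RPM in cortex and 6.51, 8.06 and 10.2 RPM in gastrocnemius was lower in cortex by a log2 of −0.61 (SE 0.11, edgeR FDR 8.12e-05). Abca7 lies among closely spaced genes, and its H3K27ac peak was 68.0 ± 71.3 kb long in gastrocnemius against 9.49 ± 3.98 kb in cortex (SD, n = 10 and n = 9). The lengths overlapped between the tissues, and the gastrocnemius SD exceeds its mean. In the Abca7 body H3K27me3 was 12.5 ± 4.33 RPM in cortex and 0.286 ± 0.904 RPM in gastrocnemius (SD, n = 9 and n = 10). The gastrocnemius median was 0 and the highest value 2.86 RPM, and this body was tested only because of cortex. Over the Abca7 locus the values were 83 ± 12.4 and 32.3 ± 15.8 RPM (1.41, SE 0.24, edgeR FDR 7.36e-05).

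The Picalm promoter peak was longer and held more reads in gastrocnemius, and the read density in its TSS window was higher in cortex. At its TSS, chr7 position 90130213 on the plus strand in the CpG-rich stretch printed above, H3K4me3 within 1 kb measured 38.9, 52.2 and 68.2 RPM in cortex and 20.2, 32.2 and 45.0 RPM in gastrocnemius (0.38, SE 0.12, edgeR FDR 0.00860). The peak itself was 5.82 ± 1.04 kb long in cortex and 12.6 ± 5.10 kb in gastrocnemius and held 146 ± 6.49 and 187 ± 25.4 RPM (SD, n = 9 and n = 10), so that counted over whole peaks the direction turned to −0.37 (edgeR FDR 0.000105). The gene 2310010J17Rik starts 0.277 kb upstream of this TSS and shares these reads. The H3K27ac peak showed the same broadening, from 7.16 ± 2.08 kb to 33.4 ± 12.1 kb (SD, n = 9 and n = 10), while the 1 kb window was at 13.5 ± 3.68 and 10.5 ± 2.28 RPM (0.05, 95% interval −0.15 to 0.26, edgeR FDR 0.665). Counted over whole peaks, Picalm H3K27ac was called lower in cortex (−1.71, edgeR FDR 5.39e-09). Over the Picalm locus H3K27ac measured 93.6, 111 and 128 RPM in cortex and 273, 313 and 336 RPM in gastrocnemius (−1.49, SE 0.06, edgeR FDR 1.03e-14). The H3K4me3 site chr7:90154201-90160600 around exon 2 of 21 was called in gastrocnemius libraries alone, at 6.79, 13.9 and 18.8 RPM. For H3K27ac the upstream site chr7:90089001-90102400 was lower in cortex by a log2 of −2.49 (SE 0.36, edgeR FDR 5.45e-06), chr7:90232801-90237000 within Ccdc83 by −2.45 (SE 1.12, edgeR FDR 0.0540) and chr7:90174401-90220200, from exon 9 to the end of the gene, by −0.76 (SE 0.12, edgeR FDR 1.29e-05).

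Bin1 and Cd2ap were not called for H3K4me3 at the promoter, where Bin1 alone was called for H3K27ac, and both carried more of the active marks along the gene in gastrocnemius. Bin1, at its TSS on chr18 position 32377217 on the plus strand, had H3K4me3 of 48.4 ± 9.74 and 38.9 ± 11.6 RPM (SD, n = 9 and n = 10; 0.02, 95% interval −0.34 to 0.38, edgeR FDR 0.929). Its H3K27ac was 11.7 ± 1.85 and 11.6 ± 1.60 RPM (SD, n = 9 and n = 10) and was called lower in cortex after TMM scaling (−0.26, SE 0.08, edgeR FDR 0.00840), while it was not called without TMM (0.01) or within 2500 bases (−0.13, edgeR FDR 0.151). The gene A830052D11Rik starts 1.07 kb away and lies in the same H3K27ac peak. Inside Bin1 the H3K4me3 site chr18:32409401-32417800, from exon 3 to exon 7 of 19, was at 11.6, 18.1 and 25.9 RPM in gastrocnemius and had no peak in any cortex library. The H3K27ac peak over the Bin1 TSS was 21.5 ± 7.09 kb long in cortex and 53.6 ± 11.3 kb in gastrocnemius (SD, n = 9 and n = 10), close to the length of the gene, 58.5 kb. H3K27me3 in the flanks of Bin1 was called in 9 of 9 cortex and 3 of 10 gastrocnemius libraries. The difference of 2.48 (95% interval −0.27 to 5.22) was not called (edgeR FDR 0.117), but was with the mouse as a block (8.35, SE 1.91, edgeR FDR 0.00454) and without gastrocnemius replicate 9 (2.83) or replicate 10 (3.30). Cd2ap, chr17 position 42876424 on the minus strand, had H3K4me3 of 47.8 ± 7.18 and 39.3 ± 7.62 RPM at its TSS (SD, n = 9 and n = 10; −0.01, 95% interval −0.20 to 0.18, edgeR FDR 0.934) and H3K27ac of 10.7 ± 1.46 and 9.05 ± 2.38 RPM (SD, n = 9 and n = 10; −0.03, 95% interval −0.23 to 0.18, edgeR FDR 0.828). Without TMM its H3K4me3 was called higher in cortex (0.28, edgeR FDR 0.0352). The whole H3K4me3 peak held 84.5 ± 3.12 RPM in cortex and 98.0 ± 4.79 RPM in gastrocnemius (SD, n = 9 and n = 10), and the H3K27ac peak 34.9 ± 3.34 and 48.6 ± 8.02 RPM. Over the Cd2ap body H3K27ac was 22.3 ± 4.32 and 58.8 ± 9.22 RPM (SD, n = 9 and n = 10; −1.44, SE 0.12, edgeR FDR 2.99e-09), and the site chr17:42813401-42823800, exons 10 to 13 of 18, was at 8.08, 10.6 and 17 RPM in gastrocnemius with no cortex peak. H3K27me3 in the Cd2ap flanks was called in 4 of 9 cortex and 0 of 10 gastrocnemius libraries, and this locus, 1 of the 3 counted as higher in cortex for this mark, was not called with the mouse as a block (edgeR FDR 0.127). For Picalm the corresponding libraries were 5 of 9 and 1 of 10 (edgeR FDR 0.210, and 0.0553 with the block).

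**Figure D4:**
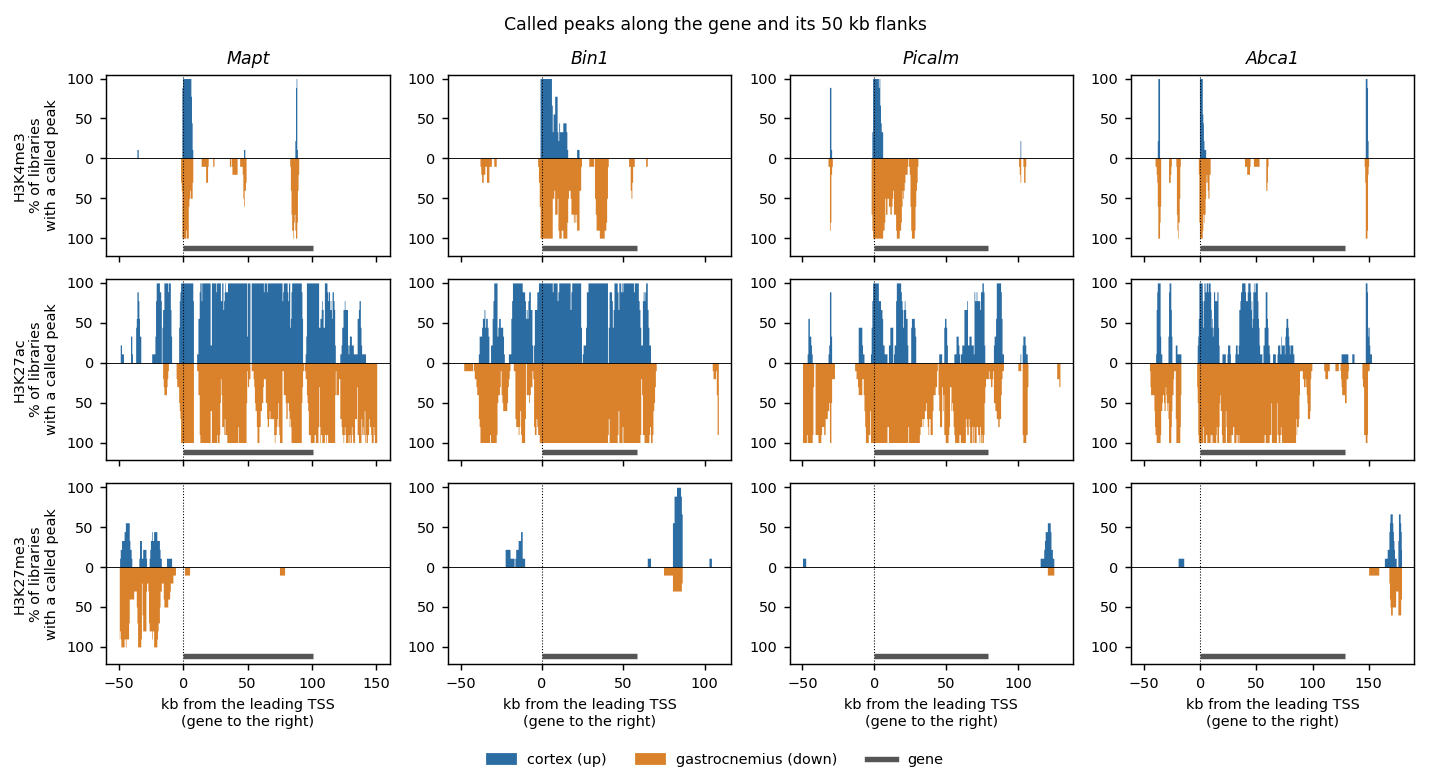
Percent of libraries with a called peak, cortex drawn upward and gastrocnemius downward, for each mark against the distance in kb from the leading TSS for Mapt, Bin1, Picalm and Abca1 with 50 kb flanks. H3K27ac covers more of the Picalm locus (102 against 37.7 kb) and of the Abca1 locus (115 against 50.3 kb) in gastrocnemius, and H3K4me3 sites away from the TSS are seen in gastrocnemius libraries only within Bin1 and Picalm and upstream of Abca1.

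Sorl1 was higher in cortex along the gene for the active marks, and sites beyond its 3′ end also differed between the tissues. At the leading TSS, chr9 position 42124297 on the minus strand, H3K4me3 measured 26.2, 32.8 and 44.7 RPM in cortex and 14.7, 23.8 and 33.9 RPM in gastrocnemius (0.23, 95% interval −0.04 to 0.51, edgeR FDR 0.145, but called at 0.46 without the libraries with an S number, at 0.62 in a window of 2500 bases to either side, and at 0.28 without cortex replicate 8 or gastrocnemius replicate 9), though the whole peak held 104 ± 6.33 and 45.8 ± 4.69 RPM (SD, n = 9 and n = 10) and the tissues did not overlap on that measure. H3K27ac there was 8.57 ± 1.72 and 6.87 ± 0.927 RPM (SD, n = 9 and n = 10; 0.00, 95% interval −0.23 to 0.23, edgeR FDR 0.996), and was called higher in cortex without TMM (0.30) and within 2500 bases (0.33). The internal TSS at 42077213 had no H3K4me3 peak in any library and an H3K27ac peak in 5 of 9 cortex and 1 of 10 gastrocnemius libraries (1.45, edgeR FDR 0.469, and 5.05 with edgeR FDR 0.0933 with the mouse as a block). Over the locus H3K27ac measured 320, 389 and 439 RPM in cortex and 189, 242 and 307 RPM in gastrocnemius (0.68, SE 0.09, edgeR FDR 6.07e-07). The last 2 of its 48 exons, with the 3′ UTR, lie in the H3K27ac site chr9:41962401-41971600, called in cortex alone at 4.24, 9.92 and 16.6 RPM. A stretch in the 3′ flank, whose centre is 188 to 191 kb from the TSS of this 160 kb gene, had all 3 marks. H3K4me3 at chr9:41935001-41936600 was called in 9 of 9 cortex libraries (9.69, 11.4 and 13.5 RPM) and 1 of 10 gastrocnemius libraries (2.41 RPM). H3K27ac at chr9:41933601-41936400 was called in 9 of 9 and 3 of 10 (10.5, 11.3 and 13.1 RPM in cortex, log2 3.49, SE 1.19, edgeR FDR 0.0123). H3K27me3 at chr9:41930401-41936600 was called in 0 of 9 and 10 of 10, at 13.4, 18.5 and 27.1 RPM in gastrocnemius. Peaks of the active marks were thus called there in more cortex libraries and peaks of H3K27me3 in more gastrocnemius libraries. Farther out, chr9:41915201-41920600 had H3K27ac in cortex alone (8.53, 9.89 and 13.6 RPM), and nearer the gene chr9:41949001-41954000 had more H3K4me3 in gastrocnemius (−0.79, SE 0.09, edgeR FDR 6.99e-08).

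The sums over loci were split into the length covered by peaks and the RPM per covered kb, each compared by a two-sided exact permutation test over the libraries with a value. Tissue labels were exchanged freely, without regard to the 9 mice that gave both tissues, and no paired form was run. There were 58 such tests, their p-values are not adjusted, and with 9 and 10 libraries the smallest p they can give is 1.08e-05. A library without a peak has no density, so that 5 H3K27me3 density tests had fewer libraries and a smallest p from 2.29e-05 (Mapt and Sorl1) to 0.00455 (Bin1). For H3K4me3 the read density was higher in cortex at all 10 loci, with an exact p from 1.08e-05 to 0.00183. The shares of all loci were not computed for density or length. RPM is scaled to the reads in peaks, so that a library whose peaks cover less has a higher mean density. The covered length was lower in cortex at 7, higher at Clu (8.69 against 6.18 kb, exact p 0.00219), and gave an exact permutation p of 0.0974 at Ptk2b and 0.293 at Sorl1. The covered length of H3K4me3 differs in the same direction over whole libraries, with a median of 59.4 Mb in cortex and 84 Mb in gastrocnemius, and its part in these values was not tested. It also differs between libraries of unlike depth: for H3K27me3 the peaks of gastrocnemius replicate 5, with 18.2 M reads, covered 484 Mb, and those of replicate 6, with 7.87 M reads and about as many peaks, 288 Mb. For H3K27ac the length gave the largest separation at 5 loci. Peaks covered 136 and 43.7 kb of the Ptk2b locus, 137 and 78.4 kb of Sorl1, 27.6 and 13.3 kb of Clu, 37.7 and 102 kb of Picalm, and 50.3 and 115 kb of Abca1 in cortex and gastrocnemius, each with the smallest exact permutation p. Clu was also denser in cortex (3.15 against 2.43 RPM per covered kb, exact permutation p 3.25e-05). The densities at Ptk2b, Sorl1, Picalm and Abca1 gave an exact permutation p from 0.124 to 0.880. At Cd2ap length and density went opposite ways, with 10.9 and 27.6 kb covered in cortex and gastrocnemius (exact permutation p 6.50e-05) and 4.28 and 2.93 RPM per covered kb (exact permutation p 0.00199). The same held at Apoe, with 63.9 and 81.9 kb (exact permutation p 0.000411) and 3.84 and 3.32 RPM per covered kb (exact permutation p 0.0225). Bin1 was lower in cortex in both, with 81.9 and 96.2 kb (exact permutation p 0.00166) and 3.68 and 4.25 RPM per covered kb (exact permutation p 0.0164), and Abca7 in length, with 98.7 and 113 kb (exact permutation p 0.000119), while its density gave an exact permutation p of 0.797. Mapt differed in density alone, with 128 and 124 kb covered (exact permutation p 0.437) and 3.74 and 2.70 RPM per covered kb (exact permutation p 1.08e-05). H3K27me3 covered 21.9 kb of the Ptk2b locus in cortex and 88.9 kb in gastrocnemius (exact permutation p 2.17e-05), and 17.2 and 7.54 kb of the Abca7 locus (exact permutation p 4.33e-05).

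**Figure D5:**
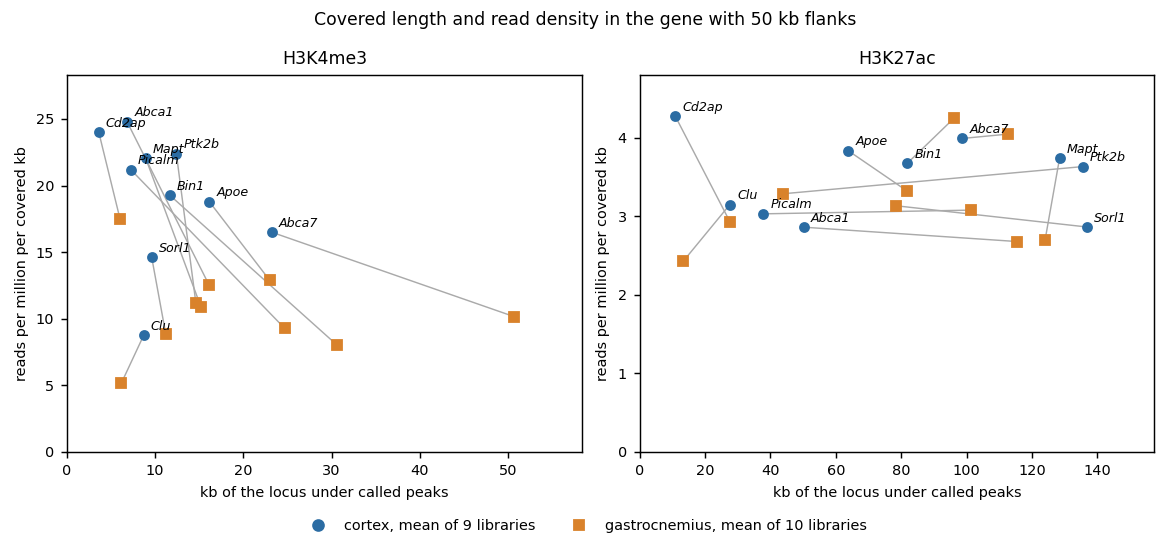
Kilobases covered by called peaks and RPM per covered kb in the locus of each gene with 50 kb flanks, as tissue means for H3K4me3 and H3K27ac, with lines joining the tissues of a gene. For H3K27ac the lines run mainly along the covered length (136 against 43.7 kb at Ptk2b), and for Mapt along the density (3.74 against 2.70 RPM per kb).

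Genes whose TSSs lie in the same flanks did not simply follow the members. In the Apoe cluster, the lipoprotein gene Apoc1 had H3K4me3 peaks in 3 of 9 cortex and 0 of 10 gastrocnemius libraries and H3K27me3 peaks in 0 and 3, too few to read a difference from, and Clptm1 was higher in cortex for H3K4me3 (0.30, edgeR FDR 0.0414). Around Abca7, Wdr18 (0.78) and Polr2e (0.80) were higher in cortex for H3K4me3, although Polr2e was lower for H3K27ac (−0.36, edgeR FDR 0.000202), while for H3K4me3 Cnn2, a calponin gene, was lower (−0.43, edgeR FDR 9.16e-06). Grin3b, an NMDA receptor subunit upstream of Abca7, had less H3K27ac (−0.93, edgeR FDR 6.74e-06) and more H3K27me3 (0.46, edgeR FDR 0.00693) in cortex. Next to Ptk2b, Ephx2 was lower in cortex for H3K4me3 (−0.38, edgeR FDR 0.0112) and H3K27ac (−0.29, edgeR FDR 0.0557).

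Lists of other genes from the pathways of the 10 were described in the same way at their leading TSSs, to be read against the shares of all genes given above. Of 20 genes of lipoprotein and cholesterol transport, H3K4me3 was higher in cortex at 10 of 18 tested and in gastrocnemius at 3, with a median difference of 0.35. The cholesterol transporters Abcg4 (1.64) and Abcg1 (0.97) and the reelin receptors Lrp8 (0.97) and Vldlr (0.82) were among the former, and the lipase Lpl (−1.64) and the nuclear receptor Nr1h3 (−1.14) among the latter. H3K27ac was higher in cortex at 8 of these 20 and lower at 6. For H3K27me3 all 9 genes tested had peaks in a single tissue, so that each was tested only because of the tissue where it is high. At 8 of them the peaks lay in gastrocnemius alone. Abcg4 and Lrp8 had them in 0 of 9 cortex and 10 of 10 gastrocnemius libraries, and Lpl went the other way, with 9 of 9 and 0 of 10. Of 22 genes of endocytosis and endosomal sorting, 12 were higher in cortex for H3K4me3 and 2 in gastrocnemius, with a median of 0.23. The sorting receptors Sorcs3 (6.33) and Sorcs1 (2.16) and the synaptic endocytosis genes Snap91 (2.27) and Amph (2.17) were named for their large differences. They are relatives of Sorl1 (0.23), Picalm (0.38) and Bin1 (0.02) but do not stand for all relatives. Sort1 and Sorcs2, in the same list, are not given here. Eps15 (−0.27) and Ap2m1 (−0.19) were lower in cortex. For H3K27ac the counts in this list were 12 and 1, and for H3K27me3 0 and 5 of 8 tested. Of these 8, 5 had H3K27me3 peaks in both tissues, and the rest were tested only because of the tissue where they are high. Of 17 genes of microtubules and tau kinases, 10 were higher in cortex for H3K4me3 and 3 in gastrocnemius, with a median of 0.36, led by Tubb3 (2.69) and Mark1 (1.71), while the tau kinases Cdk5 (−0.55) and Gsk3b (−0.53) were lower. Ttbk1, a tau tubulin kinase, had H3K4me3 in 9 of 9 and 0 of 10 libraries. The counts were 13 and 0 for H3K27ac, and 0 and 7 of 9 tested for H3K27me3. Of these 9, 2 had H3K27me3 peaks in both tissues, and the rest were tested only because of the tissue where they are high. Of 10 adhesion kinase genes around Ptk2b, 4 were higher in cortex and 1 in gastrocnemius for H3K4me3, with a median of 0.04. Src, a partner kinase of PYK2, was at 0.92 for H3K4me3 and 1.33 for H3K27ac, and paxillin (Pxn) at −0.53 and −0.58. The counts were 3 and 2 for H3K27ac, and Src was the 1 gene tested for H3K27me3, with peaks in gastrocnemius libraries alone.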

How the data were processed

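Cortex and gastrocnemius chromatin was precipitated for each mark. Per the labels and the study's methods reads were mapped by the authors with BWA against mm10, passed through SAMtools filters, and turned into epic2 peaks for each library, and the deposited files give each peak's read counts and a score, here used only to leave out the lowest peaks. From these counts, windows within 1 kb of RefSeq TSSs, genes with 50 kb flanks and merged peak sites were counted and fitted per mark with edgeR 4.0.16 (R 4.3.3; quasi-likelihood test, TMM from autosomal features, features with a peak in at least 3 libraries of a tissue, FDR under 0.1 over all features). Scripts were tested on simulated data. The 10 members and all lists were chosen with earlier results of these data known. Mice of 9 codes gave both tissues. Deviations of libraries of the same mouse correlated by −0.0683 to 0.125 (medians 0.0112, 0.0122 and 0.0880 for H3K4me3, H3K27ac and H3K27me3), and the mouse was tried as a block. Alternatives covered scaling, DESeq2 1.42.0, filters, window and flank sizes, the libraries with an S number left out together and each library left out. Depth differed between libraries and can move which peaks were called and how long they are, and p-values cover the spread between mice.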

Additional observations from a re-analysis of the deposited data

Results flagged for a closer look

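A library stood apart from the rest of its tissue in 5 of 99 groups of values checked, about as many as the 1 in 20 that chance gives. Mapt H3K27ac at the TSS was 14.5 RPM in cortex replicate 8, below the next lowest, 16.5. Ptk2b H3K27me3 at the TSS was 0 in cortex replicate 3, where the next lowest was 6.54 RPM. Over loci with flanks, Abca1 H3K4me3 was 175 RPM in cortex replicate 2 (next highest 167), Cd2ap H3K27ac 95.1 RPM in gastrocnemius replicate 4 (next highest 81), and Apoe H3K27me3 0 in gastrocnemius replicate 5 (next lowest 13.4). The value of replicate 3 bears on the Ptk2b result at the TSS, which was called higher in gastrocnemius in the fits without cortex replicate 2, 3 or 5.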

How the results depend on the processing

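Of 216 counts of members or sites recomputed under other settings, 35 moved by over 1.5 times, and of 737 member values 9 changed direction with a call on either side, 46 lost and 36 gained a call. At the TSS, H3K4me3 counts higher in cortex (4) became 0 by presence of peaks and 1 where a 2-fold change was also asked; those higher in gastrocnemius (0) became 1 with DESeq2, with its size factors in edgeR and in a window of 2500 bases, and 4 with whole peak counts. H3K27ac counts higher in cortex (3) became 6 without TMM, 5 at 2500 bases, 0 by presence and 1 at 2-fold; those higher in gastrocnemius (2) became 1 without TMM, 1 at 2500 bases, 5 with whole peaks, 0 by presence and 0 at 2-fold. The H3K27me3 count higher in gastrocnemius (0) became 1 with DESeq2, its size factors, no filter, 500 or 2500 bases and whole peaks, and 2 with uncalled windows at the lowest density. Over loci the 2-fold limit left 1 and 0 for H3K4me3 and 2 and 2 for H3K27ac, the fit without other promoters, with its own scaling, gave 2 H3K4me3 loci higher in gastrocnemius, and for H3K27me3 the gene body gave 1 higher in cortex and 10 kb flanks 1 in each direction. Sites higher in cortex became 5 for H3K4me3 at 2-fold, and for H3K27me3 8 with DESeq2 or sites in at least 2 libraries and 3 with at least 5 libraries or at 2-fold. The values that turned were whole peak counts for H3K4me3 at Mapt (0.60) and Picalm (−0.37) and for H3K27ac at Picalm (−1.71) and Abca1 (−0.73), no TMM for Cd2ap H3K4me3 (0.28) and Bin1 H3K27ac (0.010), the fit without other promoters, through its scaling, for the Cd2ap locus (0.016; this locus lost no reads), and the gene alone (0.30) or 10 kb flanks (0.35) for H3K27ac at Apoe; the cause of the other turns was not tested. Leaving out each library gave 3 to 5 and 0 to 1 members (cortex and gastrocnemius) for H3K4me3 at the TSS, 2 to 3 and 2 for H3K27ac and 0 and 0 to 1 for H3K27me3; 4 to 5 and 5, 4 and 6, and 3 to 4 and 2 loci; and 11 to 12 and 21 to 25, 27 to 31 and 18 to 20, and 4 to 8 and 5 to 6 sites. With the mouse as a replicate block the TSS counts stayed at 4 and 0, 3 and 2, and 0 and 0 and the loci of the active marks at 5 and 5 and 4 and 6, the H3K27me3 loci went from 3 and 2 to 4 and 2 (Cd2ap lost, Bin1 and Picalm gained), and the sites became 11 and 16, 25 and 17, and 4 and 5; beside the calls given above it changed those of sites that were not named.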
